A study of Arabidopsis thaliana with 24 samples.

Results

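The organ by genotype interaction with iron supplied asks, gene by gene, whether the change between nas4x-1 and wild type Arabidopsis plants differed between leaves and roots when both genotypes had Fe. It was computed as the change in leaves (nas4x-1 minus wild type) minus the change in roots (nas4x-1 minus wild type), so that a value below 0 means a higher change in roots than in leaves. The arrays were chosen by the titles of the samples, and 12 of the 24 ATH1 arrays of the series belong to it, 3 each of nas4x-1 leaves, wild type leaves, nas4x-1 roots and wild type roots. The other 12 arrays are the same groups without Fe and were used only for comparison. The nas4x-1 plants are 1 mutant line with T-DNA insertions in all 4 NICOTIANAMINE SYNTHASE (NAS) genes. All plants grew in hydroponic culture, were moved at 4 weeks of age for 7 days to medium with 10 µM Fe (+ Fe), or without Fe in the comparison arrays (- Fe), and were harvested at 5 weeks. The 3 biological repetitions came from consecutive weeks, so arrays of the same number share a harvest week.

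Nicotianamine is a small chelator made by NAS enzymes that binds Fe, Cu and Zn and keeps them mobile inside the plant, among others on the way from the vascular tissue into leaf cells. Plants short of Fe raise a root programme in which transcription factors of the bHLH family switch on ferric reduction, uptake by IRT1 and the release of Fe-mobilising coumarins. Fe beyond need is stored in ferritin in plastids, so root uptake genes and ferritin genes are commonly read as opposite reporters of the local Fe status.

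The arrays separated by organ far more than by genotype. Correlations of log2 signals were 0.9468 to 0.9875 within a group, 0.9427 to 0.9884 between genotypes of 1 organ and 0.6268 to 0.6941 between organs, and array medians lay between 37.8 and 37.98. The leaf markers RCA and LHCB4.1, which encode a Rubisco activator and a light-harvesting protein, had signals of 3723 to 4366 and 4465 to 5247 in leaves, against 31.9 to 103 and 69.7 to 177 in roots. The root hair gene EXPA7 had 0.592 to 9.22 in leaves and 79.5 to 206 in roots. Only these 2 of 6 leaf markers and 1 of 8 root markers had a probe set of their own here. The organs are mixtures of cells, in which more cells of a type and more RNA per cell cannot be told apart. An offset of 16 was added before log2, and 23% of the 22746 probe sets were below it in all 12 arrays, so changes of genes that are dim in 1 organ are understated.

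The targeted genes NAS1 to NAS4 checked the labels. NAS1 had signals of 20.2, 23.2 and 19.3 in nas4x-1 leaves in weeks 1 to 3, against 299, 117 and 174 in wild type leaves. In roots NAS1 had 20.1, 10.7 and 8.8 in nas4x-1, against 326, 94.2 and 106 in wild type. The genotypes did not overlap in either organ, and NAS1 fell in leaves (log2 change -2.44, limma adjusted p = 0.0198) and in roots (-2.53, adjusted p = 0.00724). Without the week in the fit the leaf call was lost (adjusted p = 0.0507). Its interaction was close to 0 (0.09 ± 0.41, SE). NAS3 was bright in leaves alone, with 48.7, 35 and 24.6 in nas4x-1 leaves against 355, 130 and 313 in wild type leaves, and with 4.79 to 10.1 in nas4x-1 roots against 9.66 to 10.7 in wild type roots. It fell in leaves (-2.35, adjusted p = 0.0198), while its interaction of -2.15 ± 0.402 did not pass (adjusted p = 0.191, but 0.0183 without the wild type leaf array of week 2 and 0.0165 in a fit of all 24 arrays). NAS2 went the other way and was brighter in nas4x-1. Its signals were 107, 92.3 and 109 in nas4x-1 leaves against 13.4, 3.22 and 6.39 in wild type leaves (2.35, adjusted p = 0.0221), and 106, 214 and 163 in nas4x-1 roots against 76.2, 42.5 and 25.5 in wild type roots (1.495, adjusted p = 0.277). NAS4 had 1.65, 17.5 and 17.1 in nas4x-1 leaves and 72.8, 41.5 and 65.7 in wild type leaves, and its root groups overlapped, at 16.6, 29.2 and 18 in nas4x-1 and 35.3, 5.88 and 5.95 in wild type. Its interaction of -1.81 passed only as 3 week values against 0 (adjusted p = 0.0284, against 0.762 in the fit reported). The position of the probes relative to the insertions is not given in the sources used here, so a signal that remained in nas4x-1 is no measure of the enzyme. Of the 4 genes none passed the interaction test, and 2 had an unadjusted p under 0.05 (4.48% of all probe sets). The median interaction of the 4 was -0.86, against 0.00 over all probe sets.

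Over all 22746 probe sets, 18 passed the interaction test at an adjusted p under 0.05 (0.0791%), 8 of them above 0 (0.0352%) and 10 below 0 (0.044%). At an unadjusted p under 0.05 there were 1019 (4.48%). In the same fit 37 probe sets passed between genotypes in leaves (0.163%), 17 higher (0.0747%) and 20 lower (0.0879%) in nas4x-1, and 26 in roots (0.114%), 18 higher (0.0791%) and 8 lower (0.0352%). Of the 18, 15 also passed in roots and 7 in leaves. All 18 had double differences of 1 sign in all 3 weeks, which 27.8% of all probe sets had. The 18 were selected on the same values, so their agreement in sign is no separate support. These counts depended on single arrays and weeks. Without the nas4x-1 leaf array of week 1 the interaction had 47 calls, without all arrays of week 1 it had 74, and without those of week 2 or of week 3 it had 0, with 697 and 641 probe sets at an unadjusted p under 0.05. For genes that missed the threshold, the text names mainly those of the 15 leave-out fits in which they passed. Over the named genes, 20 values gained a call in such fits and 74 lost one. A pass of that kind shows dependence on the arrays fitted and is no call.

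Most of the calls, 12 of 18, belonged to pairs of probe sets whose signals exchanged levels between the genotypes. In such a pair 1 probe set had in nas4x-1 the level that the other had in wild type, and the reverse. There were 16 such probe sets in 12 pairings by a strict rule that was chosen after the values were seen, and 34 in 32 pairings by a wider one, which takes in any opposite changes of like size whose signals match crosswise and held 17 of the 18 calls. The strict rule kept the wider pairs whose distance in the deposited table recurred in another pair. It also kept pairs that matched each other best with both log2 changes of at least 3. Both rules took only probe sets with non-overlapping genotype groups and a log2 change of at least 1.5 in an organ at + Fe. Such probe sets are also likelier to be called, so the number of calls in pairs is partly set by the rules. CcdA, a thiol transfer protein of the thylakoid membrane, and NUDX13, a Nudix hydrolase, show the pattern in leaves. CcdA had 380, 332 and 314 in nas4x-1 leaves against 14, 21.4 and 20.8 in wild type leaves, while NUDX13 had 14.5, 19.4 and 23.5 in nas4x-1 leaves against 449, 349 and 377 in wild type leaves. In roots neither passed the test. There CcdA averaged 36.1 ± 7.86 in nas4x-1 against 37.4 ± 8.95 in wild type, and NUDX13 89.5 ± 10.8 in nas4x-1 against 105 ± 5.19 in wild type (mean ± SD, n = 3 each). Their interactions were 3.40 ± 0.239 and -3.33 ± 0.206 (adjusted p = 0.000245 and 0.000121). They lie 9649 probe sets apart in the deposited table, and the same distance separates the syntaxin gene SYP122 and AT1G32760, which exchanged levels in roots, and AT5G64460 and AT3G24080, which did so in leaves. As a recurring distance was itself a way into the strict rule, it is no separate evidence for these pairs.

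The other large pairs were CYP72A13 with AT2G21920, mainly in leaves, and AT3G14100 with FRS12, in roots alone. CYP72A13, named as a cytochrome P450, had 265, 405 and 301 in nas4x-1 leaves and 3.75, 7 and 3.08 in wild type leaves. AT2G21920 had 7.37, 0.654 and 8.58 in nas4x-1 leaves and 304, 371 and 352 in wild type leaves. The leaf groups of both lay far apart, in opposite order. AT3G14100, annotated as an oligouridylate-binding protein, had 641, 728 and 580 in nas4x-1 roots and 67.9, 53.3 and 56.2 in wild type roots, with 575 ± 81.5 in nas4x-1 leaves and 590 ± 109 in wild type leaves. FRS12, related to the FAR1 transcription factors, had 61.6, 62 and 54.6 in nas4x-1 roots and 974, 591 and 592 in wild type roots, with 64.1 ± 8.32 in nas4x-1 leaves and 59.4 ± 12.8 in wild type leaves. Here the root groups lay apart and the leaf groups overlapped. AT1G66130 and AT1G30600 exchanged levels in both organs and in opposite directions. AT1G66130 averaged 164 in nas4x-1 and 23.2 in wild type leaves but 1.2 in nas4x-1 and 57.7 in wild type roots, and AT1G30600 averaged 17.8 in nas4x-1 and 219 in wild type leaves but 65.4 in nas4x-1 and 4.35 in wild type roots. They had the largest interactions of the 18, 4.17 and -4.69. What exchanges the levels was not tested. With the 16 probe sets left out 3 calls remained, and with the 34 left out 1 did, that of GLTP2. The 34 include the targeted genes NAS1 and NAS2, and also BHLH101, IRT2, AT1G52560, AT1G73120 and AT1G67310. The drop to 1 call is thus partly a removal of genes that the wider rule took in by a match of levels alone.

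**Figure D1:**
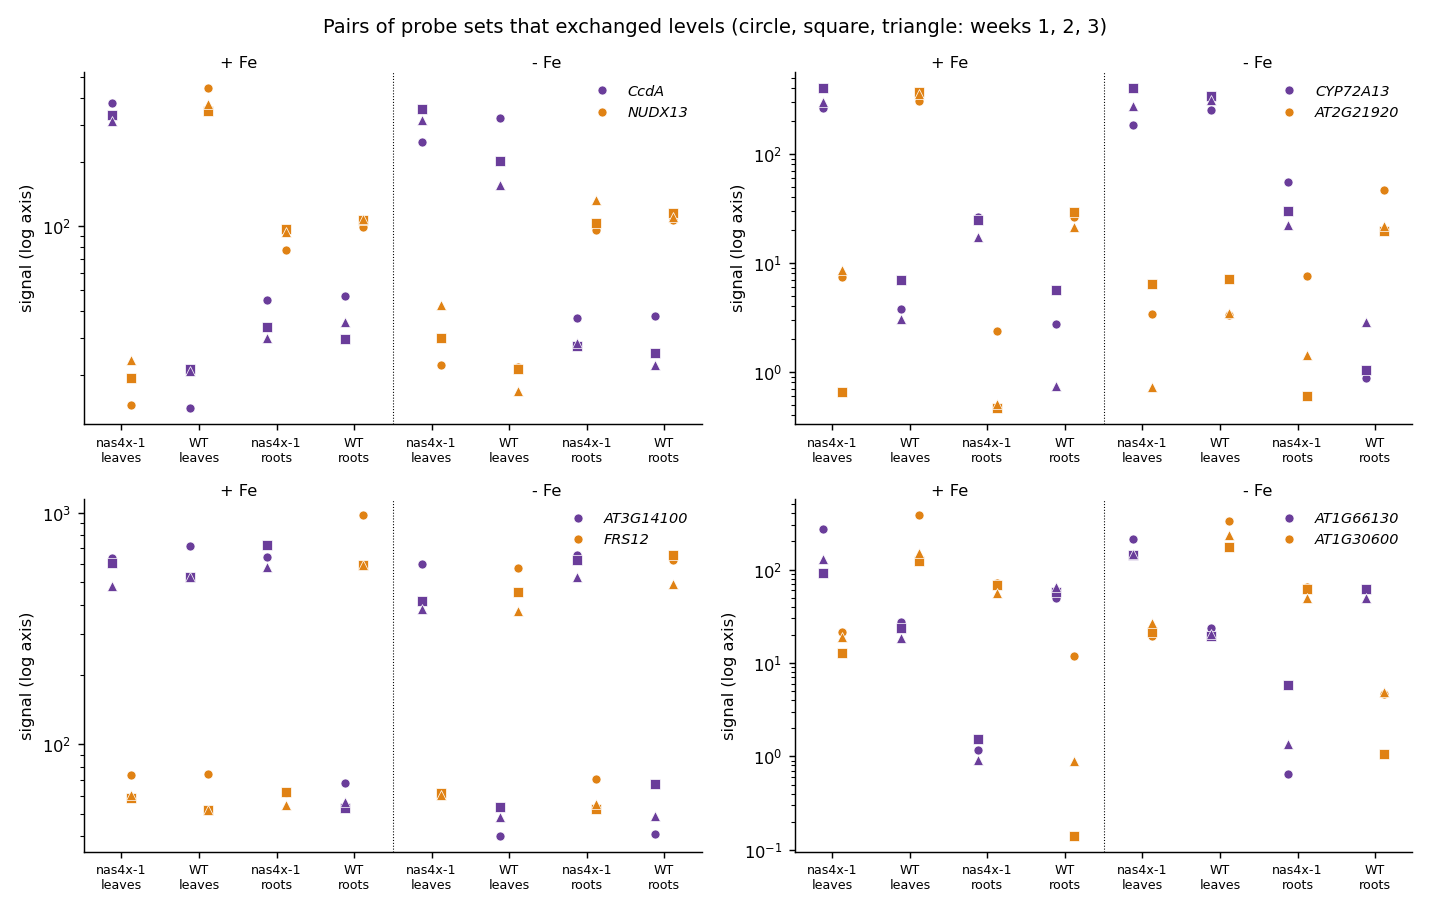
Signal (log axis) of 4 pairs of probe sets in every array of the 8 groups, nas4x-1 left of wild type (WT), leaves before roots and + Fe left of - Fe; circles, squares and triangles are weeks 1, 2 and 3. At + Fe CcdA and NUDX13 swap between nas4x-1 leaves and wild type leaves (380, 332 and 314 against 14 to 21.4 for CcdA) and keep their levels in roots, while AT3G14100 and FRS12 swap in roots alone.

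Outside the strict pairs 6 genes passed. All 6 changed in roots and none passed in leaves, 5 with an interaction below 0 and 1 above 0. Their root groups did not overlap, 5 with nas4x-1 higher and 1 with it lower, as held for 3.23% and 2.99% of all probe sets. The 6 genes passed on these same arrays, so the separation is no further support. BHLH101 (AT5G04150), a bHLH transcription factor that Fe shortage switches on, had 96.1, 93 and 92.5 in nas4x-1 roots against 13.3, 5.88 and 8.1 in wild type roots. In leaves it had 5.93, 1.36 and 0.796 in nas4x-1 and 15.2, 0.85 and 8.75 in wild type, all below the offset. The root groups lay far apart and the leaf groups overlapped. BHLH101 rose in roots (log2 change 2.14 ± 0.162, adjusted p = 0.000285), its change in leaves was -0.34, and its interaction was -2.48 ± 0.23 (adjusted p = 0.00164, and 0.00836 without the exchanged pairs). The latter value adjusts the same p-values over fewer probe sets, so it rises as small p-values leave the ranking. IRT2 (AT4G19680), a metal transporter of root epidermal cells related to IRT1, had 62.9, 45.5 and 52.8 in nas4x-1 roots and 8.62, 9.21 and 6.38 in wild type roots. In leaves its signals were 0.892 to 1.74 in nas4x-1 and 0.238 to 8.48 in wild type. IRT2 rose in roots (1.53 ± 0.16, adjusted p = 0.00382), and the interaction of -1.64 ± 0.227 passed narrowly (adjusted p = 0.0365). That call was lost when the same p-values were adjusted without the exchanged pairs (adjusted p = 0.103). It was kept in 3 of 15 fits that left out an array or a week. Those were the fits without the wild type leaf array of week 1 or 2 or the nas4x-1 root array of week 2.

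GLTP2 (AT1G21360), named as a glycolipid transfer protein, had 108, 118 and 108 in nas4x-1 roots against 22.2, 22.3 and 25.5 in wild type roots. All 6 leaf signals were between 0.192 and 2.61. It rose in roots (1.69 ± 0.12, adjusted p = 0.000164) with an interaction of -1.64 ± 0.169 (adjusted p = 0.00395, and 0.0158 without the exchanged pairs). For AT1G73120 the sources used here name no function. It had 747, 717 and 628 in nas4x-1 roots against 131, 51.8 and 50.1 in wild type roots, and 2.85 to 12.1 in nas4x-1 leaves against 0.813 to 7.77 in wild type leaves. Its interaction was -2.87 ± 0.374 (adjusted p = 0.023), and tested as 3 week values against 0 it did not pass (0.0633).

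AT1G67310 differed from the others in that it was as bright in leaves as in nas4x-1 roots. It had 97, 120 and 124 in nas4x-1 leaves, 143, 125 and 131 in wild type leaves, 95.9, 124 and 99 in nas4x-1 roots, and 3.48, 25.6 and 6.48 in wild type roots. The wild type roots were the group that stood far apart, while the leaf groups were close but did not overlap (root change 2.21 ± 0.214, adjusted p = 0.00215, interaction -2.42 ± 0.303, adjusted p = 0.0176). When the same p-values were adjusted without the exchanged pairs, neither AT1G73120 (adjusted p = 0.0736) nor AT1G67310 (0.0658) passed. AT1G73120 kept its call in 4 of 15 fits with an array or week left out and AT1G67310 in 5 of 15. AT1G52560 was the gene above 0. It had 4.54, 6.79 and 7.52 in nas4x-1 roots against 133, 134 and 108 in wild type roots, and 0.304 to 3.19 in nas4x-1 leaves against 0.333 to 3.19 in wild type leaves. It fell in roots (-2.66 ± 0.135, adjusted p = 1.36e-05), and its interaction was 2.68 ± 0.192 (adjusted p = 0.000245, and 0.00147 without the exchanged pairs). Each of the 6 lost its call with an offset of 1 in place of 16 (adjusted p from 0.113 to 0.954), with its sign unchanged. BHLH101, GLTP2 and AT1G52560 kept theirs in 13 of 15 fits with an array or week left out, the exceptions being the fits without week 2 and without week 3. In the fit of all 24 arrays AT1G52560 passed, and the other 5 did not (adjusted p = 0.0655 for GLTP2, 0.108 for IRT2, 0.197 for AT1G67310, 0.368 for AT1G73120 and 0.673 for BHLH101).

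**Figure D2:**
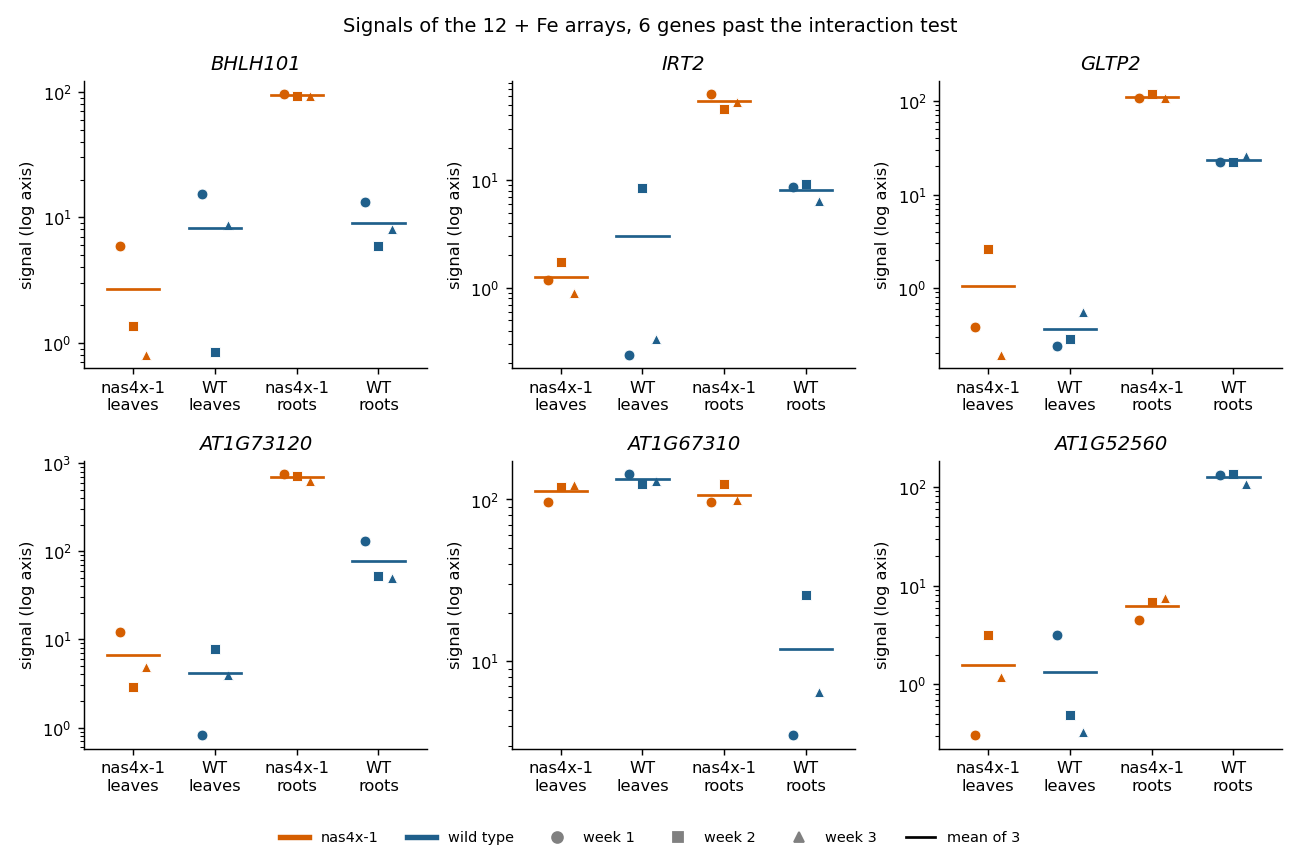
Signal (log axis) of the 6 genes in the 12 + Fe arrays, with nas4x-1 left of wild type (WT) in leaves and then in roots; points are arrays, marked by week, and lines are means of 3. The root groups are separate in every panel (BHLH101 at 92.5 to 96.1 in nas4x-1 against 5.88 to 13.3 in wild type), and the leaf groups overlap except for AT1G67310.

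Names limit what the lists can show. Probe sets with no gene in the platform annotation were named through the study's supplementary lists, of metal homeostasis genes known from other work and of genes that differed between groups on these arrays, so the direction of members named that way is no independent evidence. That holds for 6 of the 18 called probe sets and for 9 of 10 measured genes of root Fe uptake, 4 of 14 regulators, 1 of 5 coumarin genes and 6 of 8 Fe storage genes. It also holds for all 4 NAS genes, all 9 of the list of YSL transporters and OPT3, 9 of 11 ZIP transporters and 2 of 2 ferric reductase oxidases. Among heavy metal ATPases and metal tolerance proteins it holds for 10 of 12, and among genes of Cu and superoxide dismutase for 7 of 8. For genes of DNA synthesis, repair and mitosis it is 9 of 13.

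The genes of root Fe uptake and Fe loading leaned to the root side as a list. Of 13 genes 10 were measured, 9 of them had an interaction below 0, and the median was -1.004, against 0.00 and 11444 of 22746 below 0 over all probe sets. The median change was 0.05 in leaves and 1.11 in roots. In roots 4 rose (IRT2, NRAMP3, FRD3 and MTP8), as 0.0791% of all probe sets did, and in leaves none passed (0.163% of all probe sets). In the interaction IRT2 alone passed (0.0791% of all probe sets), with 6 at an unadjusted p under 0.05 (4.48%). NRAMP3, which releases Fe from the vacuole, had 415, 341 and 335 in nas4x-1 roots and 112, 72.9 and 77.5 in wild type roots, and 55.9, 40.8 and 60.5 in nas4x-1 leaves against 31.4, 33.6 and 48.9 in wild type leaves. It rose in roots (1.89 ± 0.172, adjusted p = 0.0013), and its interaction of -1.54 missed the threshold (adjusted p = 0.0879). With the week fitted in each organ of its own it passed (adjusted p = 0.0179), as it did with an offset of 32 (0.0458) and without the wild type root array of week 1 (0.0382), the wild type leaf array of week 1 (0.0319) or all arrays of week 1 (0.031).

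FRD3, which loads citrate into the root xylem, had 310, 415 and 301 in nas4x-1 roots and 109, 93.9 and 92 in wild type roots (1.64 ± 0.165, adjusted p = 0.00292). In leaves it had 15.5, 18.4 and 16.7 in nas4x-1 against 9.8, 3.5 and 6.27 in wild type, also without overlap but with no call (0.55, adjusted p = 0.32), and the interaction was -1.08 (adjusted p = 0.361). MTP8, a vacuolar metal transporter, had 51.6, 52.7 and 39.2 in nas4x-1 roots and 14.4, 6.64 and 11.4 in wild type roots (1.26, adjusted p = 0.0111). IRT1, the main Fe uptake transporter of the root, had 1 wild type root array at the nas4x-1 level. It had 858, 1876 and 1068 in nas4x-1 roots, against 1262, 222 and 249 in wild type roots, and at most 10.5 in any leaf array. Its week double differences were 1.20 in week 1 and -3.004 and -2.05 in weeks 2 and 3, and the interaction of -1.29 ± 0.716 did not pass (adjusted p = 1). Without all arrays of week 1 it passed (-2.525, adjusted p = 0.0326), and without the wild type root array of week 1 alone it was -2.066 (adjusted p = 0.328). MTP3, a root Zn transporter, had its wild type root signal at 310 in week 1 and at 99.6 and 136 in weeks 2 and 3, against 316, 342 and 348 in nas4x-1 roots. IRT1, MTP3 and S8H, a coumarin enzyme, thus shared a wild type root array of week 1 at or near the nas4x-1 level, and what sets that array apart was not tested.

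Of 20 regulators of the Fe deficiency response 14 were measured, 10 had an interaction below 0, and the median was -0.28 (0.08 in leaves, 0.40 in roots). Over the 10 named by the platform annotation it was -0.09. BHLH101 and BHLH039, which act in the same subgroup of bHLH factors, rose in roots, as 0.0791% of all probe sets did. The other regulators passed in neither organ. BHLH039 had 174, 162 and 220 in nas4x-1 roots and 61.1, 24.7 and 27.1 in wild type roots (1.96 ± 0.217, adjusted p = 0.0058), with leaf signals of 5.44 to 8.38 in nas4x-1 and 0.333 to 4.31 in wild type. Its interaction of -1.70 was larger than that of IRT2 but did not pass (adjusted p = 0.161), and it passed without the wild type root array of week 1 (-1.97, adjusted p = 0.0206) or all arrays of week 1 (-2.04, 0.036). IMA1, a small peptide of the Fe response, had 54, 33.9 and 69.8 in nas4x-1 roots against 19, 7.17 and 4.09 in wild type roots, while in leaves it had 35.1, 5.97 and 5.14 in nas4x-1 and 31.8, 3.59 and 3.93 in wild type (interaction -1.28, adjusted p = 0.762). The factors that act above them, such as ILR3 (0.05) and BHLH104 (0.31), and the ubiquitin ligase BTS (-0.36) had small interactions.

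The enzymes of coumarin synthesis had a median interaction of -0.89, with 5 of 10 genes measured and 4 of them below 0. All 5 had a root change above 0, which 48.6% of all probe sets had, and in 4 of the 5 the root groups did not overlap (3.23% of all probe sets were separate in this direction). None passed a test, and 3 had an unadjusted p under 0.05 in the interaction, as 4.48% of all probe sets had. S8H, which hydroxylates scopoletin, had 222, 269 and 144 in nas4x-1 roots against 128, 19.6 and 13.6 in wild type roots, with week 1 the highest of wild type (interaction -2.51 ± 0.616, adjusted p = 0.524). Without that array the interaction of S8H passed (-3.18, adjusted p = 0.0148), as it did without all arrays of week 1 (-3.30, 0.036). BGLU42, a glucosidase needed for the release of coumarins, had 144, 208 and 145 in nas4x-1 roots and 110, 77.2 and 90 in wild type roots. OPT3, which loads Fe into the phloem and was listed with the YSL transporters of nicotianamine-bound metals, had 46, 102 and 96.4 in nas4x-1 roots and 27.6, 20.8 and 23 in wild type roots. In leaves the OPT3 groups overlapped, at 98.5, 123 and 182 in nas4x-1 and 131, 143 and 106 in wild type (interaction -1.19, adjusted p = 0.762). The 8 YSL genes measured had interactions between -0.32 and 0.50. Of 12 ZIP transporters of Zn and Fe 11 were measured, 9 with a root change above 0 (48.6% of all probe sets) and 7 with a leaf change above 0 (48.9%). Their medians were 0.36 in roots, 0.23 in leaves and -0.09 in the interaction, and 9 of the 11 were named through the study's lists. FRO3, a ferric reductase linked to mitochondria, had 272, 202 and 317 in nas4x-1 roots against 167, 83.2 and 95.2 in wild type roots, without overlap and without a call (root change 1.12, adjusted p = 0.13, interaction -0.85, adjusted p = 0.902). AT3G07720, a kelch repeat gene on no list, had 2049, 2150 and 2327 in nas4x-1 roots against 706, 271 and 342 in wild type roots, and 131, 276 and 283 in nas4x-1 leaves against 166, 219 and 213 in wild type leaves. It rose in roots (2.38, adjusted p = 0.042, and 0.0699 without the exchanged pairs), and its interaction was -2.25 (adjusted p = 0.373), or -2.81 (0.00488) without the wild type root array of week 1 and -2.47 (0.00304) without all arrays of week 1, and it passed as 3 week values against 0 (0.0137).

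**Figure D3:**
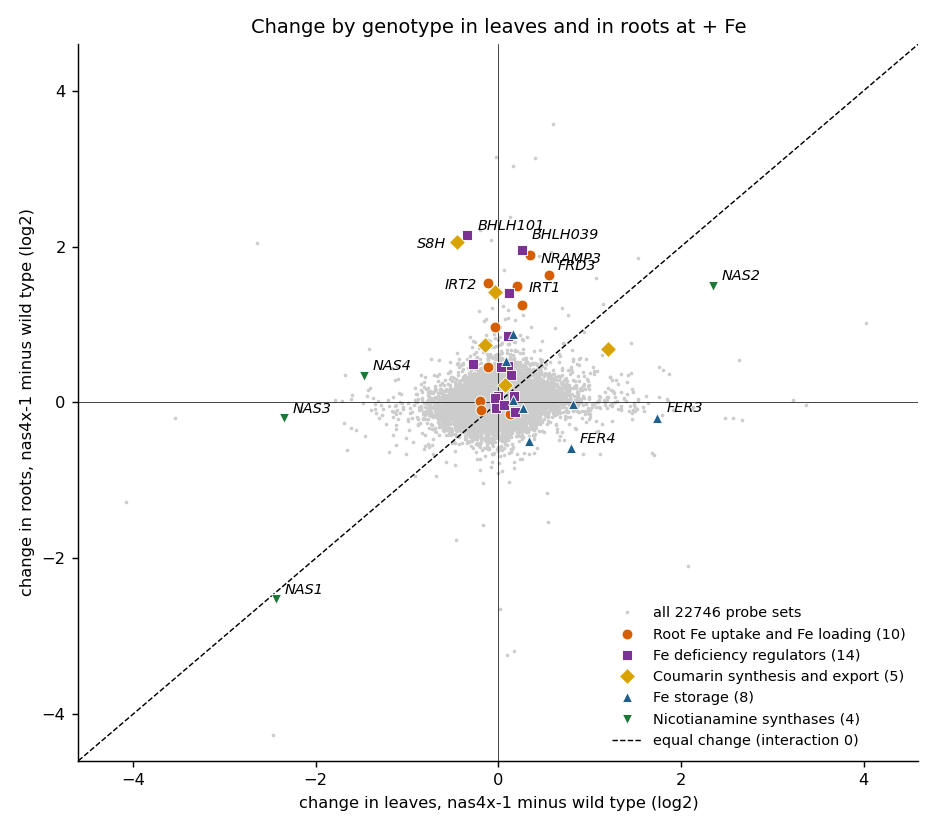
Log2 change of nas4x-1 against wild type at + Fe in leaves (x axis) and in roots (y axis) for all 22746 probe sets (grey) and for members of 5 lists; the dashed line marks equal change in both organs. Root uptake genes and regulators spread upward along a leaf change near 0 (BHLH101 at -0.34 and 2.14), ferritins spread to the right (FER3 at 1.74 and -0.20), and NAS1 lies on the line (-2.44 and -2.53).

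Fe storage genes leaned to the leaf side as a list, while the 2 members named by the platform annotation, neither of them a ferritin, had a median interaction of -0.16. Of 10 genes 8 were measured, all 8 had a leaf change above 0 (48.9% of all probe sets), and in 5 the leaf groups did not overlap (4.98% of all probe sets in this direction). The median change was 0.30 in leaves and -0.05 in roots, and the median interaction was 0.59. None passed the interaction test, and 5 had an unadjusted p under 0.05 (4.48% of all probe sets), 4 of these above 0. FER3 (AT3G56090), a plastid ferritin, had 724, 1030 and 725 in nas4x-1 leaves against 142, 274 and 319 in wild type leaves. In roots it had 181, 287 and 233 in nas4x-1 and 125, 386 and 380 in wild type. The leaf groups were apart by more than a factor of 2 and the root groups overlapped. FER3 rose in leaves (1.74 ± 0.245, adjusted p = 0.0288), a call that was lost without the week in the fit (0.214), and its interaction of 1.94 ± 0.346 did not pass (adjusted p = 0.161). Without the wild type root array of week 1, the dimmest of that group, the interaction passed (2.25, adjusted p = 0.0186), as it did without all arrays of week 1 (2.04, 0.0258).

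FER4, the ferritin that also reaches mitochondria, had groups that were separate in both organs, in opposite order. It had 417, 421 and 269 in nas4x-1 leaves against 189, 231 and 188 in wild type leaves, and 49.6, 35.5 and 32.5 in nas4x-1 roots against 69, 62.9 and 67.5 in wild type roots. The 3 week values were 1.46, 1.44 and 1.26, and the interaction was 1.39 ± 0.23 (adjusted p = 0.119). Tested as 3 week values against 0 the interaction passed, for FER4 (adjusted p = 0.0428) and for FER3 (0.0153). FER1, another plastid ferritin, had 3234, 3775 and 2862 in nas4x-1 leaves against 2030, 1743 and 1788 in wild type leaves, and 947, 1386 and 1116 in nas4x-1 roots against 808, 1440 and 1322 in wild type roots (interaction 0.84, adjusted p = 0.962). FER2, a seed ferritin, was below the offset in all leaf arrays. The vacuolar transporter gene VTL2 had the lowest interaction of the list, -0.71.

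Further genes changed in leaves with little change in roots. TIM17-1, a subunit of the protein import pore of mitochondria, had 26.3, 60.8 and 54.2 in nas4x-1 leaves and 5.25, 4.19 and 3.42 in wild type leaves, with at most 4.74 in any root array. It rose in leaves (1.59 ± 0.202, adjusted p = 0.0221), and the interaction was 1.70 (adjusted p = 0.12), or 2.02 (0.000744) without the nas4x-1 leaf array of week 1 and 1.996 (0.00758) without all arrays of week 1. With the week fitted in each organ it passed as well (adjusted p = 0.046). BCS1, an ATPase of the mitochondrial outer membrane, had 90.4, 180 and 153 in nas4x-1 leaves and 27.2, 50.8 and 45 in wild type leaves, against 13.6 to 17.2 in nas4x-1 roots and 16.1 to 17.8 in wild type roots. It also rose in leaves (1.44, adjusted p = 0.0264, interaction 1.48, adjusted p = 0.191), and its interaction passed in the same fits (1.69, adjusted p = 0.0413, and 1.60, 0.0296) and with the week fitted in each organ (0.0221). These were the 2 of 8 measured genes of mitochondrial stress, out of 17, that passed in leaves, where 0.163% of all probe sets did. None passed in roots (0.114% of all probe sets), and the median interaction was 0.20. TIM17-1 and BCS1 were the 2 of the 8 named through the study's lists, so their direction is no independent evidence. Over the 6 named by the platform annotation the median was -0.05 in leaves and -0.11 in the interaction.

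The next leaf genes were chosen after their values were seen, as were NRAMP3, FRD3, MTP8, BHLH039, FER2, AT3G07720, AT3G49160 and the list members ILR3, BHLH104, BTS, VTL2, ICS1 and WRKY46. AT3G24080 and AT3G49340 were named as partners of exchanged probe sets. The anthocyanin glycosyltransferase genes UF3GT and AT4G14090 fell in leaves (-1.61, adjusted p = 0.0336, and -1.79, adjusted p = 0.027), and both calls were lost without the week in the fit (0.162 and 0.0635). The interaction of AT4G14090, -1.82, passed with the week fitted in each organ (adjusted p = 0.00576). UF3GT had 7.58, 26.2 and 15.1 in nas4x-1 leaves and 56.7, 159 and 52.4 in wild type leaves, with at most 7.64 in roots, and its interaction was -1.70 (adjusted p = 0.223). AAP2, an amino acid permease of the phloem, had 147, 287 and 159 in nas4x-1 leaves and 352, 649 and 664 in wild type leaves, against 1242, 2489 and 1747 in nas4x-1 roots and 950, 2101 and 1928 in wild type roots. It fell in leaves (-1.42, adjusted p = 0.0221, and 0.307 without the week), with an interaction of -1.58 (adjusted p = 0.103, and 0.0478 as 3 week values against 0). The glutamate decarboxylase gene GAD had 18.24, 24.15 and 21.3 in nas4x-1 leaves against 3.01, 4.1 and 2.97 in wild type leaves, a small part of its root level of 1612 to 1682 in nas4x-1 and 1456 to 1715 in wild type. It rose in leaves (0.94, adjusted p = 0.0127) with an interaction of 0.88 (adjusted p = 0.12).

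QQS, an orphan gene linked to leaf starch content, was lower in nas4x-1 in both organs. It had 212, 212 and 117 in nas4x-1 leaves against 1287, 954 and 906 in wild type leaves, and 44.9, 27.9 and 35.2 in nas4x-1 roots against 1301, 738 and 965 in wild type roots. The wild type levels were close in both organs, and the nas4x-1 levels were lower in roots in each week. QQS fell in leaves (-2.47 ± 0.193, adjusted p = 7e-04) and in roots (-4.27 ± 0.193, adjusted p = 5.63e-06). Its interaction of 1.80 ± 0.273 missed the threshold (adjusted p = 0.0714), passed with the week fitted in each organ (0.0175), in the fit of all 24 arrays (0.0327) or without the nas4x-1 leaf array of week 3 (0.0274), and did not pass without the week (0.255).

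**Figure D4:**
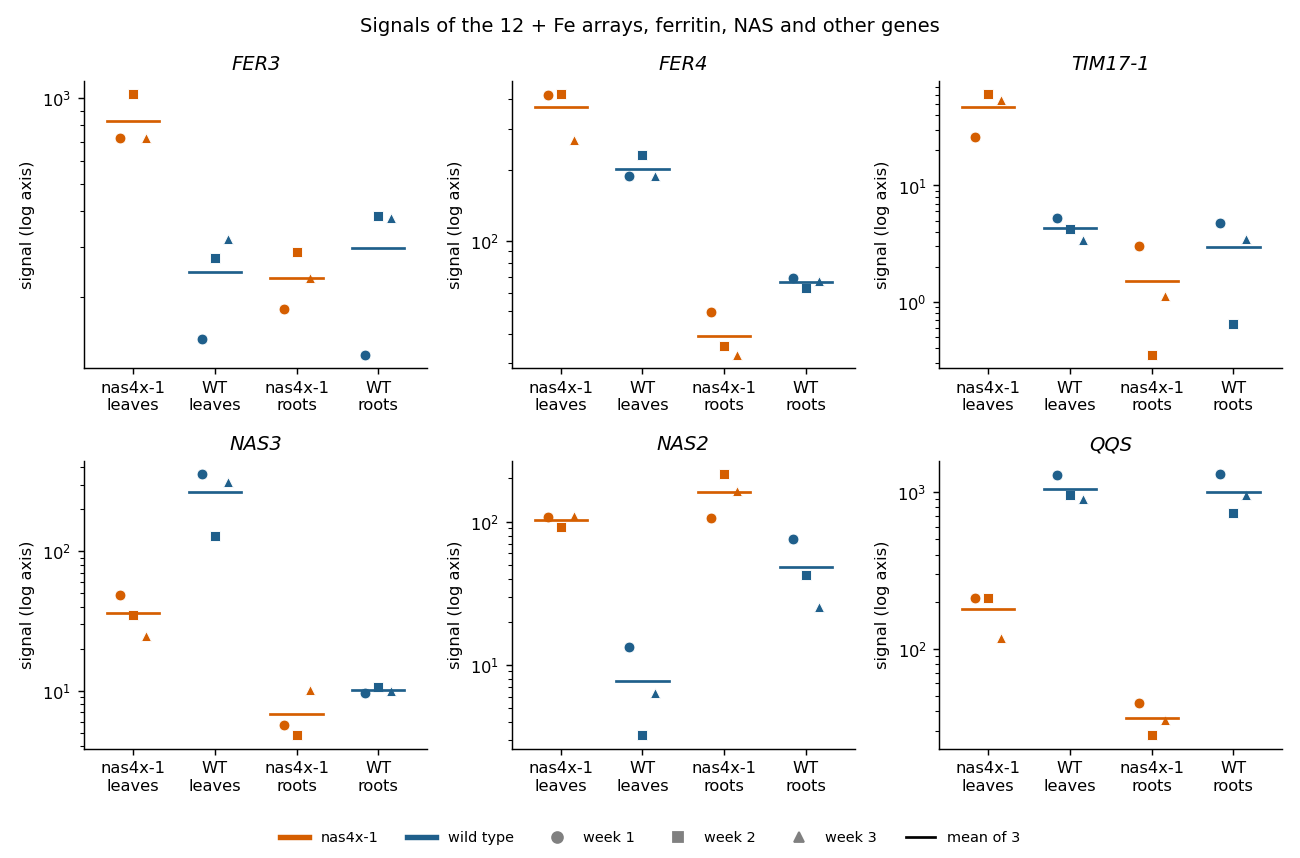
Signal (log axis) of FER3, FER4, TIM17-1, NAS3, NAS2 and QQS in the 12 + Fe arrays, with nas4x-1 left of wild type (WT) in leaves and then in roots; points are arrays, marked by week, and lines are means of 3. FER3 and TIM17-1 separate the genotypes in leaves alone (FER3 at 724 to 1030 in nas4x-1 against 142 to 319 in wild type), and QQS separates them in both organs.

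The remaining lists had 1 interaction call outside the exchanged pairs, that of AT1G52560. For salicylic acid and pathogen defence 8 of 28 genes were measured, with a median interaction of 0.68, all 8 with a leaf change above 0 (median 0.74, against 0.12 in roots), with no call in leaves and 6 at an unadjusted p under 0.05, as 9.03% of all probe sets had. ICS1, the main enzyme of salicylic acid synthesis, had an interaction of 1.13 (adjusted p = 0.914) and WRKY46 1.49 (adjusted p = 1), and the 1 member past the test, SYP122 at -2.98, belongs to an exchanged pair. Of the 8, 5 were named through the study's lists. Plastid-encoded genes had a median interaction of -0.03 over the 13 listed and 0.15 over all 69 matched, nuclear photosystem and Calvin cycle genes 0.05 (9 of 46 measured) and chlorophyll synthesis genes 0.21 (4 of 15), with no call in any organ. Genes of DNA synthesis, repair and mitosis had 0.04 (13 of 26), heavy metal ATPases and metal tolerance proteins -0.06 (12 of 13), and heat shock genes 0.21 (6 of 18), among which AT1G52560 had been listed. Starch and sucrose genes had -0.08 (8 of 38), ferric reductase oxidases -0.50 (2 of 8) and cold response genes -0.75 (3 of 9), and the lists of the circadian clock, flavonoids and glucosinolates had 1 measured gene each (-0.16, -1.65 and -0.31). Among 8 of 16 genes of Cu and superoxide dismutase, with a median of -0.33, FSD1, the Fe superoxide dismutase of plastids, had the largest interaction (2.08 ± 0.742, adjusted p = 0.966, and 2.61, 0.00758 without all arrays of week 1), with 21.5, 40.5 and 37.2 in nas4x-1 roots against 36.1, 186 and 248 in wild type roots, and 2833, 1312 and 2020 in nas4x-1 leaves against 1920, 976 and 1285 in wild type leaves.

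The same contrast without Fe was measured on 12 separate arrays of the same weeks. There 9 probe sets passed (0.0396%), 1512 at an unadjusted p under 0.05 (6.65%), and 3 of the 18 passed at both supplies, AT1G66130, AT1G30600 and AT5G64460, all of exchanged pairs. None of the 6 genes outside the pairs passed at - Fe, 4 had an unadjusted p under 0.05 there, and 5 had the same sign. AT1G52560 kept nearly its whole interaction, with 2.68 at + Fe and 2.40 ± 0.443 at - Fe, and in roots at - Fe it had 1.17, 31.8 and 4.65 in nas4x-1 against 134, 88.8 and 125 in wild type. AT1G73120 had -2.87 at + Fe and -2.61 at - Fe, and AT1G67310 had -2.42 and -2.01. In both genes the wild type root array of week 2 at - Fe was far above those of weeks 1 and 3, at 631 against 58.6 and 133 for AT1G73120 and at 91.8 against 1.37 and 3.76 for AT1G67310. IRT2 had -1.64 at + Fe and -1.32 at - Fe. GLTP2 had -1.64 at + Fe and -0.83 ± 0.408 at - Fe (unadjusted p = 0.069), where its week values were 0.083, -0.77 and -1.80.

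BHLH101 had an interaction of -2.48 at + Fe and of 0.03 ± 0.748 at - Fe. Without Fe its leaf signals were 325, 165 and 23.8 in nas4x-1 and 157, 42 and 4.55 in wild type, and its root signals 235, 190 and 212 in nas4x-1 and 106, 168 and 31.3 in wild type, so the gene was bright in both organs in weeks 1 and 2. The difference between its interactions, + Fe minus - Fe, was -2.52 ± 1.07 and did not pass (unadjusted p = 0.0298, adjusted p = 1). The ferritin interactions were 1.94 at + Fe and 0.35 at - Fe for FER3 and 1.39 and 0.16 for FER4, with differences of 1.59 (adjusted p = 0.98) and 1.23 (adjusted p = 1). TIM17-1 had 1.70 at + Fe and -0.53 at - Fe (difference 2.23, adjusted p = 0.687), and BCS1 1.48 and -0.37. The test of the difference passed for 10 probe sets (0.044%), with 944 at an unadjusted p under 0.05 (4.15%). Of the 10, 8 were exchanged probe sets, and the others were AT5G26610 (5.32) and PSAG (-4.99), both named after their values were seen. Pairs were sought in the + Fe arrays alone, so AT5G26610 and PSAG were not screened for an exchange confined to - Fe. No gene of the Fe lists was among the 10.

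**Figure D5:**
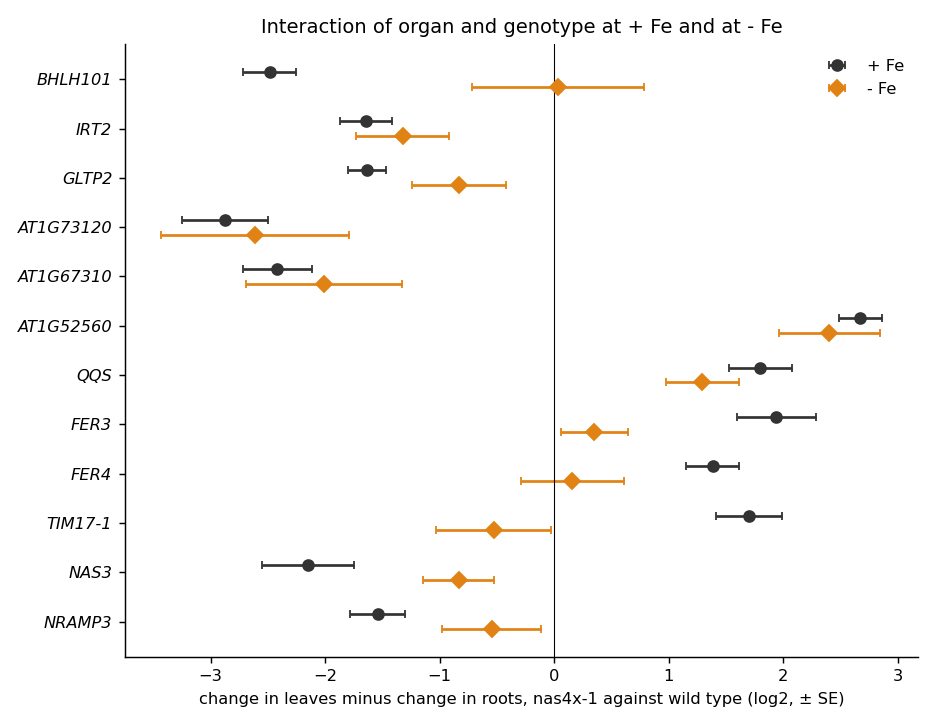
Interaction (change in leaves minus change in roots, nas4x-1 against wild type, log2) of 12 genes at + Fe (black circles) and at - Fe (orange diamonds), each from the 12 arrays of that supply; bars are SE of the fit. AT1G52560, AT1G73120 and AT1G67310 have like values at both supplies (2.68 and 2.40 for AT1G52560), and BHLH101 has -2.48 at + Fe and 0.03 at - Fe.

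The exchanged pairs can be followed between the supplies in the same arrays. CcdA averaged 306 in nas4x-1 leaves and 227 in wild type leaves at - Fe, and NUDX13 31.4 in nas4x-1 leaves and 20.1 in wild type leaves, so that at - Fe both genotypes had the levels that nas4x-1 leaves had at + Fe. Wild type leaves at + Fe were the group that stood apart for this pair. For AT3G14100 and FRS12 the wild type leaves at - Fe (47.5 and 468) had the levels of wild type roots at + Fe (59.1 and 719). SYP122 had 135 in wild type leaves at + Fe, against 4.38 in those at - Fe. In CYP72A13 and AT2G21920 the leaf exchange was seen at + Fe alone, while the root groups were separate at both supplies, with CYP72A13 at 22.7 in nas4x-1 and 3.02 in wild type roots at + Fe and at 35.6 in nas4x-1 and 1.6 in wild type roots at - Fe. CcdA, NUDX13, AT3G14100 and FRS12 passed the test of the difference between supplies, with differences of 3.03, -3.72, -2.89 and 2.98.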

How the data were processed

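RNA of rosette leaves and roots was hybridised to ATH1 arrays, 1 sample an array. Per the study's methods the authors computed MAS signals in GCOS scaled to a target of 100 and quantile-normalised them over the arrays. The deposited values are these linear intensities, without detection calls. The table holds 22810 probe sets, 64 of them controls that entered no test. Of the 22746 tested, 13707 were matched to 1 gene, 13513 through the platform annotation and 194 through the study's supplementary lists alone, 505 to several genes and 8534 to none here.

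Here log2(intensity + 16) was fitted with limma 3.58.1 in R 4.3.3 (lmFit, and eBayes with an intensity trend), with the 4 groups and the harvest week as terms, for 12 arrays of 1 Fe supply or for all 24 where + Fe and - Fe were compared. Tests were two-sided, with Benjamini-Hochberg adjustment over all tested probe sets and a threshold of 0.05. The script was tested on simulated data. The week is a block because the study states that the repetitions were harvested in consecutive weeks. Deviations from the group means correlated at 0.389 to 0.606 between genotypes of the same week and organ (6 pairs) and at 0.0799 to 0.227 between organs of the same week (12 pairs). The p-values rest on the spread left within groups after the week term, over 3 harvests of 1 mutant line, and array number limits the precision.

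Named genes were up to 12 called probe sets with a gene in each direction whose week values had 1 sign, up to 6 called members of each list or else the 2 with the smallest p, and always NAS1 to NAS4, IRT1, FER1, FSD1, QQS, OPT3 and IMA1. Genes named outside this rule are said in the text to have been chosen after their values were seen or as partners of exchanged probe sets. The members and lists were chosen with earlier results of these data known. Alternatives changed the week term, normalisation, offset, dim probe sets, the variance model, the arrays fitted and the exchanged pairs. The columns of all 24 arrays were mapped by title. No sequences or coordinates are given.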

Additional observations from a re-analysis of the deposited data

Results flagged for a closer look

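Each of the 18 called interactions is a difference between the changes in leaves and in roots that passed its own test. Outside the strict exchanged pairs these were AT1G52560 (2.68), BHLH101 (-2.48), GLTP2 (-1.64), AT1G73120 (-2.87), AT1G67310 (-2.42) and IRT2 (-1.64). In exchanged pairs they were AT1G66130 (4.17), CcdA (3.40), AT1G32760 (3.35), FRS12 (3.34), CYP72A13 (3.003), AT5G64460 (2.33), AT4G14290 (1.41), AT2G21920 (-2.79), SYP122 (-2.98), AT3G14100 (-3.18), NUDX13 (-3.33) and AT1G30600 (-4.69).

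The interaction itself differed between + Fe and - Fe, by the test over all 24 arrays, for 10 probe sets. In exchanged pairs these were CYP72A13 (4.63), AT1G32760 (3.04), CcdA (3.03), FRS12 (2.98), SYP122 (-2.77), AT3G14100 (-2.89), NUDX13 (-3.72) and AT2G21920 (-3.91). The others were AT5G26610 (5.32) and PSAG (-4.99), both with interactions near 0 at + Fe (-0.15 for AT5G26610 and -0.35 for PSAG) and far from 0 at - Fe (-5.46 for AT5G26610 and 4.64 for PSAG). Exchanged pairs were sought at + Fe alone, so whether AT5G26610 and PSAG exchanged levels at - Fe was not tested.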

How the results depend on the processing

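The interaction at + Fe had 18 calls. It had 16 without the replicate block, 34 with the week as a replicate block within each organ and 31 with the replicate block as week double differences. There were 11 with an offset of 1, 1 without the wide and 3 without the strict exchanged pairs, and 0 to 74 with an array or week left out. With an error model after the methods, the larger of actual and averaged variance, there were 0 (237 at an unadjusted p under 0.05). That model had no Bayesian term and took both organs of the + Fe arrays together, so it is not the study's own procedure. Offset 32, quantile normalisation, no intensity trend, the dimmest 40% left out and a fit of all 24 arrays gave 13 to 19. The 37 leaf calls became 22 without the replicate block, 125 with it within each organ, 56 in the fit of all arrays, 2 with the error model, 2 and 20 without the wide and the strict pairs, and 4 to 253 with an array or week left out (162 without the nas4x-1 leaf array of week 1, 253 without week 1). The 26 root calls became 14 with an offset of 1, 5 with the error model, 7 and 14 without the wide and the strict pairs, and 6 to 42 with an array or week left out. At - Fe the 9 calls became 4 as week double differences, 16 in the fit of all arrays, 4 without the strict pairs and 3 to 10 with a week left out, and the 10 differences between supplies became 2 without the strict pairs. The strict rule was chosen after seeing the data. Except where fewer probe sets or arrays were fitted, the cause was not tested.

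Of the values of named genes, 991 kept sign and side of the threshold with an array or week left out, 74 lost and 20 gained a call and 25 turned sign. In the other settings 834 kept both, 42 lost and 21 gained a call and 3 turned sign, NAS1 with an offset of 32 (-0.0018) and EXPA7 with an offset of 1 (0.50) and the error model (0.82). With an array or week left out AT3G49340 ranged from -1.04 to 0.058, GI from -0.35 to 0.14, BCAT4 from -1.05 to 0.20, NAS1 from -0.27 to 0.44, EXPA7 from -0.41 to 0.34 and RCA from -0.23 to 0.31. Leaving out the replicate block changed no interaction call of a named gene outside the exchanged pairs. The replicate block within each organ or as week double differences gained calls for QQS, NRAMP3, TIM17-1, BCS1, AT4G14090, FER3, FER4, AAP2, AT3G07720, NAS4 and AT3G49160, and as week double differences AT1G73120 lost its call.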
